A study of Homo sapiens with 9 samples.

Results

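Cells of the MCF10A line made to express Delta-HER2, a spliced form of the HER2 receptor, were compared with control MCF10A cells across 18404 genes. The comparison used 6 of the 9 arrays of the study, the 3 titled as control and the 3 titled as Delta-HER2, chosen by their titles alone. The other 3 arrays came from cells with wild-type HER2 (WT-HER2) and served to estimate the spread between arrays. MCF10A is a widely used line of immortal, non-cancerous human breast epithelium that needs added epidermal growth factor (EGF) to grow. For the control cells the source label reads parental, while the design text speaks of an empty vector. The Delta-HER2 and WT-HER2 cells carried their receptor in the same line. All groups grew in DMEM/F12 with 5% horse serum, insulin at 10 µg/ml, cholera toxin at 100 ng/ml, EGF at 20 ng/ml and hydrocortisone at 0.5 µg/ml. RNA was taken after 16 hours in serum-free medium to which the labels add antibiotics only. The labels name neither the promoter of the transgene nor whether a line is a clone or a pool, so what came from making a line and what came from its receptor cannot be told apart. They do not say that the 3 arrays of a group came from separate cultures, so p-values measure the spread between these samples, which may be technical.

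HER2, the product of ERBB2, is a receptor tyrosine kinase that has no known ligand of its own and signals in dimers with EGFR, HER3 (ERBB3) or itself. Active dimers recruit adaptors such as SHC1 and GRB2, which switch on the RAS and ERK kinases, and feed the PI3K and AKT kinases, which keep FOXO transcription factors out of the nucleus. ERK output induces its own inhibitors, among them the DUSP phosphatases and the Sprouty and SPRED proteins, and growth factor signals raise cyclin D and E, which free E2F factors to switch on the genes of DNA replication.

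Levels are given on the log2 scale of the deposited values, on which 1 unit is a 2-fold difference. The 340 olfactory receptor genes, which mammary cells are not known to use, gauged the background, with a median of 2.40; their 0.95 quantile of 3.22 is called the background bound. Arrays had medians from 4.04 to 4.18, 3 arrays a group limit the precision, and differences had a median standard error (SE) of 0.10. The Delta-HER2 arrays scored from 38.67 to 41.66 on the main axis of variation (64.9% of the variance) and the other arrays from −23.98 to −15.53. Control replicate 1 and WT-HER2 replicate 3 stood apart from the other arrays of their groups on the next axis (16.6%). The cells carried epithelial markers on both sides: all 6 measured basal markers and all 4 general epithelial markers lay above the bound, KRT5 at 11.82 in control and 11.67 in Delta-HER2 cells, while 3 of the 7 measured blood and immune markers, the pan-leukocyte gene PTPRC (2.24 and 2.21), CD3E and LYZ, lay under it. The other 4 were CD14, which did not differ by a call (8.04 and 7.96), CD68, which was higher with Delta-HER2 (0.58), and CSF1R and ITGAM, which were lower (−0.98 and −0.32). The summed level of the 7 ran from 8.63 to 8.68 on the control arrays and from 8.55 to 8.73 with Delta-HER2, and the part of such cells in the results was not tested.

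A gene was called where limma's Benjamini-Hochberg adjusted p over all 18404 genes was below 0.05. By that rule 4669 genes (25.4%) were called, 2509 of them higher (13.6%) and 2160 lower (11.7%) with Delta-HER2. Control replicate 1 and WT-HER2 replicate 3 left out together gave 2728 higher and 2674 lower, and 4415 genes were called with and without these arrays. Quantile normalization of the table turned the majority, with 2396 higher and 2581 lower. Most of the calls were small: 3708 were under 2-fold, and the median size of a called difference was 0.61. At least 2-fold differences were called for 961 genes (5.22%), of which 636 were higher (3.46%) and 325 lower (1.77%). Beyond 8-fold the list shrank to 17 higher and 5 lower genes. The levels of the 3 control and the 3 Delta-HER2 arrays did not overlap for 37.0% of all genes. The median difference over all genes was −0.01. On the 23 chromosomes with at least 100 genes, medians ranged from −0.03 to 0.01 and the share called higher from 9.71% to 16.6%.

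**Figure D1:**
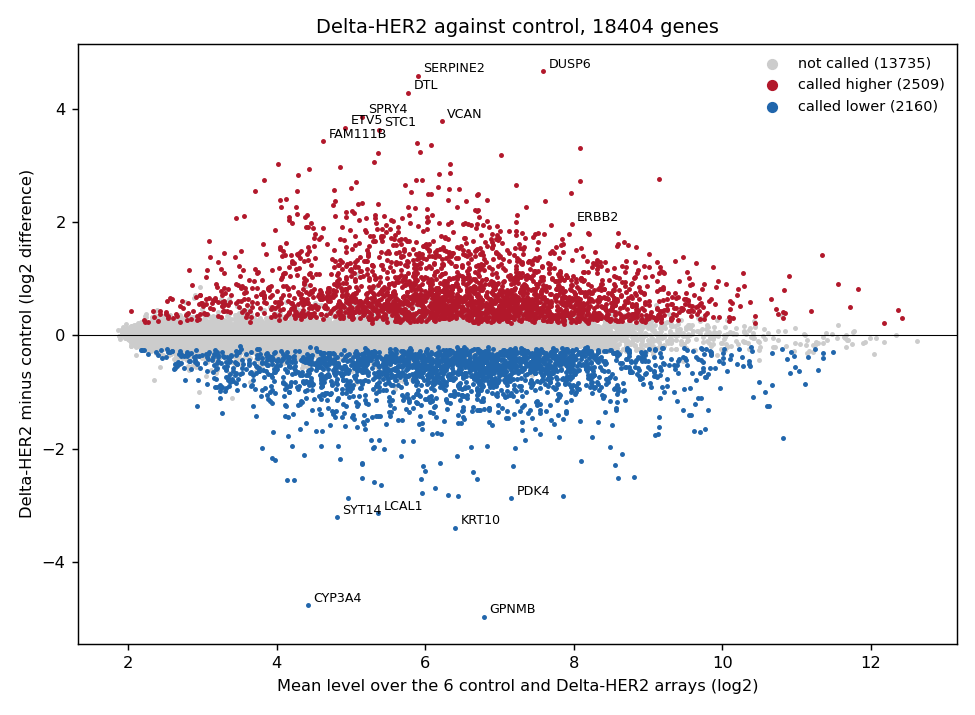
Difference between Delta-HER2 and control (log2, vertical axis) against the mean level over the 6 arrays (log2, horizontal axis), 1 point a gene, with the 2509 genes called higher in red, the 2160 called lower in blue and the rest in grey. DUSP6 lies at the top at 4.67 and GPNMB at the bottom at −4.97, and ERBB2 lies at 1.96.

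The transgene's gene was measured first. ERBB2 read 6.97, 6.91 and 7.10 on the control arrays and 8.93, 8.96 and 8.97 on the Delta-HER2 arrays, a 3.89-fold increase (log2 difference 1.96, SE 0.07, adjusted p = 1.82e-07). The groups did not overlap. Its probe summarises signal along the gene and does not tell the variant from the endogenous full-length transcript. Of the 14 HER receptors and adaptors 5 were higher and 5 lower, with a median of 0.04. SHC1, the adaptor that links the receptors to RAS, rose by 1.13 to 9.77 ± 0.02 (SD, n = 3), and ERRFI1, an inhibitor of the EGFR and HER2 kinases, rose by 0.81. ERBB3 read 6.33, 6.28 and 6.47 against 5.23, 5.21 and 5.21, and fell by 1.14 (SE 0.07, adjusted p = 3.6e-06). GRB7, an adaptor encoded beside ERBB2, fell by 0.80, and EGFR fell by 0.46. The remaining lower members, GAB1 (−0.56) and SOS1 (−0.64), both lost their call without Delta-HER2 replicate 1, Delta-HER2 replicate 2, control replicate 2 or control replicate 3, which left 3. Among the 9 EGF-family ligands HBEGF rose 6.7-fold, from 4.77, 4.53 and 4.45 to 7.31, 7.31 and 7.36, and EREG rose 10.3-fold, from 4.69, 4.26 and 4.27 to 7.78, 7.51 and 8.0. Both encode ligands of EGFR and ERBB4, and neither overlapped between groups. The neuregulin gene NRG2 fell by 0.67.

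Among called genes without overlap, the 15 that rose most and the 15 that fell most were all called under each of the 20 alternative settings run on single genes. Having been picked by size, they met the 2-fold minimum by construction, and picking by size also favours passing the stricter adjusted p. They are ranked by fitted difference. Where the mean of the dimmer group lay under the background bound, the fold is given as a lower bound, with each of its arrays raised to at least 3.22. The 30 also differed from the WT-HER2 line (limma, the same fit), a comparison in which 22.8% of all genes were called. It reuses the Delta-HER2 arrays on which the 30 were picked, so it is not separate support. DUSP6, the phosphatase that inactivates ERK, led the increases: it read 5.30, 5.03 and 5.43 on the control arrays and 9.95, 9.85 and 9.97 with Delta-HER2 (25.5-fold, 95% interval of the log2 difference 4.40 to 4.94, adjusted p = 7.3e-08). SERPINE2, a secreted inhibitor of thrombin and urokinase, read 3.41, 3.52 and 3.91 against 8.10, 8.16 and 8.34 (24.0-fold). VCAN, the matrix proteoglycan versican, read 4.20, 4.36 and 4.44 against 8.11, 8.11 and 8.13 (13.8-fold). In each of these genes the lowest Delta-HER2 array lay more than 3 units above the highest control array. STC1, a secreted glycoprotein of the stanniocalcin family, rose 12.4-fold from 3.56 ± 0.09, and FGFBP1, which releases fibroblast growth factors from the matrix, rose 9.94-fold from 6.42 ± 0.10 (SD, n = 3). DTL, which targets the replication licensing factor CDT1 for destruction, rose 19.5-fold, and FAM111B, a replication-linked protease, rose at least 8.71-fold from a control level under the bound (2.91). The histone genes H2BC14 and H1-5 rose 10.5-fold and 9.15-fold; histone genes have near-identical copies, so the probe's signal may be shared between them. SPRY4, ETV5, EXO1, CDC6, EREG and the adhesion gene AMIGO2 made up the rest of the 15.

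The decreases were led by GPNMB, a glycoprotein of lysosomes and melanosomes, with 9.11, 9.33 and 9.40 on the control arrays and 4.16, 4.45 and 4.32 with Delta-HER2 (31.3-fold lower, adjusted p = 7.3e-08). CYP3A4, a drug-metabolising cytochrome, read 6.23, 6.98 and 7.20 against 2.27, 1.85 and 1.98. All 3 Delta-HER2 arrays lay at background for CYP3A4, so it was at least 12-fold lower; the gene belongs to a family of close copies whose signal the probe may share. KRT10, a keratin of differentiating squamous cells, fell 10.6-fold, from 8.03, 8.19 and 8.10 to 4.79, 4.97 and 4.36. CD24, a surface protein used to tell mammary cell states apart, fell 7.14-fold, from 8.94, 9.51 and 9.39 to 6.81, 6.37 and 6.14. The arrays of the groups did not overlap for any of these genes. PDK4, which blocks entry of pyruvate into the citric acid cycle, fell 7.37-fold, and SELENOP, the selenium carrier selenoprotein P, fell 7.07-fold. The remaining decreases were SYT14, a synaptotagmin, the ion channel gene PIEZO2, the long non-coding RNA genes LCAL1 and LINC00417, KLHDC8B, NEBL, SEMA6D, the Eph receptor gene EPHA4 and CRYAB, which encodes a small heat shock protein; their fitted differences ran from −3.22 for SYT14 to −2.56 for CRYAB, at least 9.23-fold and 4.9-fold since both fell under the bound. In bulk RNA, fewer cells with a gene on and less RNA per cell cannot be told apart.

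Most genes of the list of ERK phosphatases and feedback inhibitors rose. Of its 14 members 10 were higher and 0 lower, with a median of 0.92. After DUSP6 and SPRY4 the largest were IER3 (2.21), the phosphatase DUSP4 (2.02) and SPRED1 (1.91), an inhibitor of RAF activation. IER3, an immediate-early gene, stands in the list but is neither a phosphatase nor an inhibitor of ERK. SPRED1 read 5.72, 5.72 and 5.73 in control and 7.64, 7.57 and 7.69 in Delta-HER2 cells. Among 13 ETS transcription factors, which ERK phosphorylates, 5 were higher and 3 lower. The members of the PEA3 subfamily all rose: ETV5 at least 11.7-fold from a control level under the bound (3.09), ETV1 at least 4.96-fold from one of 2.5, and ETV4 7.92-fold from 3.37. ETV5 read 2.98, 3.13 and 3.15 against 6.82, 6.73 and 6.75. FLI1 rose by 1.99, while the epithelial ETS factors ELF3 and EHF fell (−2.40 and −0.64); ELF3 went from 7.13, 7.15 and 7.32 to 4.75, 4.67 and 4.96. Of 19 AP-1 and immediate-early factors 6 were higher, led by FOS (1.83), EGR1 (1.5) and MYC (1.04), and 3 were lower, led by KLF4 (−1.99), a factor of squamous differentiation. In the MYC network of 12 genes 2 were higher (16.7%), 3 lower (25.0%) and 7 not called, with a median of −0.07. For all of these lists the shares over all genes were 13.6% higher and 11.7% lower. Among the called MYC network members were the repressors MXD4 and MXI1, which fell (−0.66 and −0.46).

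Among 17 components of the PI3K, AKT and mTOR pathway 4 were higher (23.5%), 3 lower (17.6%) and 10 not called, with a median of 0.06. The shares over all genes were 13.6% higher and 11.7% lower. EIF4EBP1, the translation repressor that mTOR phosphorylates, differed by 1.19 and the mTOR inhibitor DEPTOR by −0.67. Of 21 FOXO factors and targets 18 were lower and 1 higher (median −0.68). FBXO32, a ubiquitin ligase subunit of muscle wasting, read 9.87, 10.16 and 10.15 in control and 7.57, 7.48 and 7.63 in Delta-HER2 cells, and its mean was 5.67-fold lower. KLHL24 fell by 1.80 and PIK3IP1, an inhibitor of PI3K, was lower too (−1.74). TRIB2, a pseudokinase that restrains FOXO3, was the member that rose (1.58), and FOXO3 (−0.12) and TXNRD2 (−0.01) were not called. In the insulin-like growth factor axis 3 of 12 were higher, 5 lower and 4 not called. The binding protein gene IGFBP5 fell by 1.95 to 3.24, near background, and IGFBP7 rose by 0.92. Of 19 receptors and ligands of other growth factors 10 were not called, with a median of −0.01. In that list 6 were lower, led by FGFR2 (−1.35), and 3 higher: FGFBP1, MST1R (0.79) and TYRO3 (0.73).

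Cell cycle genes gave the most complete lists. All 30 DNA replication genes were higher, with a median of 1.61, and all 25 mitosis genes were higher, with a median of 1.54. Over all genes 13.6% were higher. The groups did not overlap in any of the 30 replication genes, and in 37.0% of all genes. CDC6, which loads the replicative helicase, read 3.44, 4.0 and 3.92 in control and 6.98, 6.72 and 6.83 in Delta-HER2 cells (8.33-fold). MCM10 rose at least 6.44-fold from a control level under the bound (2.96), the helicase subunits MCM6 and MCM3 rose by 2.86 and 2.5, and CDC45 rose by 2.71. Among mitosis genes CDK1 (2.03), the cytokinesis motor KIF23 (2.01) and the checkpoint kinase BUB1B (1.98) rose most; CDK1 read 4.68, 5.21 and 5.19 against 7.18, 6.85 and 7.13. Of 18 G1 cyclins and CDK inhibitors 8 were higher and 2 lower. CCND1, cyclin D1, read 6.28, 6.26 and 6.08 against 8.04, 8.06 and 8.06, a 3.59-fold increase. CCNE2, cyclin E2, rose at least 3.95-fold from a control level under the bound (2.92), with a wide spread on the Delta-HER2 arrays (5.83, 4.57 and 5.20), and the phosphatase gene CDC25A rose by 1.74. The CDK inhibitors CDKN1B and CDKN1A were the members that fell (−0.59 and −0.58). Of 10 E2F and DP factors 8 were higher, led by E2F7 (1.67), a repressor of E2F targets; E2F1 (0.18, adjusted p = 0.382) and TFDP2 (−0.03) were not called. Of 15 DNA repair genes 14 were higher: EXO1 9.45-fold, BLM (at least 4.08-fold from under the bound), BRCA1 (2.38), XRCC2 (2.32) and RAD51AP1 (2.12) led, and ATM, a damage-sensing kinase, was not called (−0.11, adjusted p = 0.564). DNMT1, which copies DNA methylation at the replication fork, rose by 1.72, while its partner UHRF1 rose by 1.61 with one high array (7.45, 5.93 and 6.05 against 4.71, 4.85 and 5.03).

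Promoters of the replication genes were searched because these genes moved together. RefSeq start sites (GRCh38.p14) were matched for 14228 of the 18404 genes, and the 250 bases before each start were read on both strands. The E2F motif TTTNNCGC lay in 13 of 26 replication promoters (50%), in 7.7% of all promoters, in 10.3% of those of genes called higher and in 9.01% of those called lower. In the mitosis list it lay in 1 of 20. Matches that overlap each other were both counted. A match is a description of letters and not evidence of a bound factor. The windows below are the ones of MCM6 and MCM3, the list members with the largest increase that held the motif, and of PCNA, the sliding clamp, and MCM7, which were chosen after their values were seen. Each is written 5′ to 3′ in the direction of transcription, and capitals mark matches to the motif or its reverse complement. They lie at chr2:135876557-135876626 (minus strand), chr6:52284878-52284947 (minus), chr20:5126643-5126712 (minus) and chr7:100101546-100101615 (minus).
MCM6: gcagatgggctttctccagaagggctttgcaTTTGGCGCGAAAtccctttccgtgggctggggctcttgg
MCM3: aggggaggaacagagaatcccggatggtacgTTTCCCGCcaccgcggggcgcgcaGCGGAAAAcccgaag
PCNA: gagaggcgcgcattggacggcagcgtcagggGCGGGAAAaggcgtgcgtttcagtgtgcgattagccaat
MCM7: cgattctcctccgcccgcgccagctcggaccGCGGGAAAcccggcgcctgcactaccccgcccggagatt
The MCM6 window holds 2 overlapping matches and the MCM3 window 2 separate ones, and the PCNA and MCM7 windows 1 each; over the 250 bases MCM6 has 4. PCNA rose by 1.46 and MCM7 by 0.96, MCM7 from 7.33, 7.14 and 7.36 to 8.18, 8.36 and 8.16. The ETS motif CCGGAAG lay in 18.2% of promoters of genes at least 2-fold higher, in 4.84% of those at least 2-fold lower and in 12.1% of all. The cyclic AMP element TGACGTCA lay in 5.66%, 1.61% and 2.38% of the same sets. For the AP-1 motif TGANTCA the shares were 4.1%, 7.26% and 4.91%. For the interferon-stimulated element GAAANNGAA they were 4.69%, 10.1% and 5.85%. Without the 2-fold minimum, promoters of genes called higher and lower held AP-1 in 3.54% and 4.54%, both under the share of all. For the interferon-stimulated element these were 5.87% and 5.86%, for ETS 17.3% and 11.2%, and for the cyclic AMP element 3.35% and 2.64%. The FOXO motif TGTTTAC was found in 3 of 18 promoters of the FOXO list and in 2.07% of all.

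Lists for making nucleotides, ribosomes, lipids and energy held many higher genes. Of 24 genes of nucleotide and folate synthesis 21 were higher and 0 lower (median 1.11): CTPS1, which makes CTP, rose 5.56-fold from 5.62, 5.49 and 5.26 to 7.94, 7.87 and 7.99, and RRM2, the ribonucleotide reductase subunit of S phase, rose 4.77-fold. TYMS, MTHFD2 and CAD rose by 1.81, 1.79 and 1.70, and IMPDH1 (0.22), IMPDH2 (0.01) and SHMT1 (adjusted p = 0.99) were not called. Of 22 ribosome biogenesis genes 20 were higher (median 1.11), led by RRS1 (1.94), NOLC1 (1.79), DKC1 (1.64), DDX21 (1.61) and NOP2 (1.48), with FBL (0.16) and NPM1 (−0.02) not called. Cytosolic ribosomal protein genes, a family examined after its values were seen, did not follow: 2 of 66 were higher and 18 lower, with a median of −0.16. Their lower count was 9 without control replicate 2, control replicate 3 or Delta-HER2 replicate 1, 11 without Delta-HER2 replicate 3, 8 at adjusted p below 0.01 and 0 with a 2-fold minimum. Among 21 tRNA synthetases and ATF4 targets 11 were higher and 4 lower; PSAT1, of serine synthesis, and IARS1 rose by 1.67 and 1.66, and the stress factor DDIT3 fell by 1.04. Sterol synthesis genes were higher in 12 of 16 (HMGCS1, 1.80), fatty acid synthesis genes in 9 of 13 (FADS1, 1.49), with SREBF1 lower (−0.30), and proteasome subunits in 14 of 23 (PSMD14, 0.82). In glucose uptake and glycolysis 16 of 19 were higher, led by the glucose carrier gene SLC2A3 (3.23, 3.01 and 3.12 against 5.27, 5.38 and 5.53), at least 4.51-fold higher from a control mean under the bound. SLC2A1, the other main glucose carrier, fell by 0.95, from 9.96, 9.94 and 9.96 to 9.0, 9.06 and 8.96, and was the member that went against the rest. The TCA cycle list had 8 of 20 higher and 0 lower, and 13 higher with array weights; ACO1 (0.96), IDH3A (0.94) and IDH2 (0.93) led. Of 18 heat shock proteins and chaperones 10 were higher, among them HSP90AA1 (1.11) and HSPH1 (0.91), and 3 lower: the small heat shock genes CRYAB (−2.56) and HSPB1 (−0.87) and the co-chaperone gene DNAJB9 (−0.41).

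Several epithelial junction and differentiation genes were lower. Of 13 desmosome genes 7 were lower and 1 higher. The desmosomal cadherin genes DSC2, DSG3 and DSC3 fell (−1.74, −1.71 and −1.21); DSG3 read 10.50, 10.57 and 10.59 in control and 8.99, 8.77 and 8.76 in Delta-HER2 cells, and the groups were apart. PERP (−1.09) and DSP (−0.93), which ties desmosomes to keratin filaments, fell as well, and PKP2 rose by 0.35. Of 17 tight junction and adhesion genes 4 were lower and 0 higher: CLDN7 (−1.41), TJP3 (−1.17), CDH1 (−1.03) and CLDN1 (−0.79). CDH1, E-cadherin, read 8.99, 9.14 and 9.15 against 8.10, 8.06 and 8.04 and thus fell 2.04-fold. Of 14 keratins 4 were lower, 1, KRT18 (0.53), higher and 9 not called. KRT15, a basal keratin, went from 11.59, 11.76 and 11.82 to 9.78, 9.93 and 10.03, and KRT16 fell by 1.2. KRT23, also counted as lower, lay under the background bound in control and Delta-HER2 cells (2.83 and 2.56). Genes of the cornified envelope were lower in 6 of 23, led by PI3 (−1.07) and ZNF750 (−1.04), and higher in 0. The luminal list had 3 higher and 3 lower of 19 (15.8% each), with 13 not called and a median of −0.04. These shares lie near the 13.6% and 11.7% of all genes. After CD24 the lower members were GATA3, a luminal lineage factor (−1.02), and MUC1 (−1.01), and the higher ones included XBP1 (0.81).

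Mesenchymal genes moved in both directions. Of 23 genes 11 were higher, led by VCAN, the matrix protein gene TNC (1.70), ITGA5 (1.46), CDH2 (N-cadherin, 1.29) and THBS1 (1.15). CDH2 read 4.99, 4.88 and 5.05 against 6.36, 6.24 and 6.18. TGFBI, ZEB2, TWIST1 and AXL were lower (−0.86, −0.49, −0.42 and −0.40). Of the transcription factors known to drive the mesenchymal state, ZEB2 and TWIST1 were thus lower, and ZEB1, SNAI1, SNAI2 and TWIST2 were not called (0.27, 0.27, −0.11 and 0.08). Of the 8 fibroblast markers 0 were higher and 2 lower, FBLN1 (−1.14) and COL1A1 (−0.44, a call lost under some alternatives), and 2, PDGFRA and LUM, lay under the bound. Their summed level ran from 9.72 to 9.76 on the control arrays and from 8.94 to 9.0 with Delta-HER2, and their part in the result was not tested. Of the 15 integrin subunits 8 were higher, among them ITGA3 and the epithelial subunit ITGB6 (1.21 each), and ITGB8 was lower (−0.96). Basement membrane genes fell in 6 of 17, led by LAMB2 (−0.94) and HSPG2 (−0.78), while COL4A1 and COL4A2, neighbours that share a promoter region, rose by 1.02 and 1.29. Among 22 genes of plasminogen activation and matrix proteolysis 6 were higher and 5 lower: after SERPINE2 the inhibitor gene TIMP1 rose by 1.43, from 10.57, 10.65 and 10.66 to 12.13, 11.97 and 12.05, and PLAUR by 0.94, while MMP13 fell at least 3.0-fold to a level under the bound and TIMP3 fell (−1.68).

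Of 25 chemokine, interleukin and NF-kB feedback genes 9 were higher and 1 lower, 15 were not called, and the median was 0.13. IL1A read 4.14, 4.55 and 4.46 against 6.57, 6.48 and 6.45 (4.34-fold), and CXCL8, interleukin 8, read 3.74, 4.03 and 3.87 against 6.18, 5.69 and 6.07 (4.28-fold). IL1B and CXCL1 rose by 1.88 and 1.46. IL6 rose at least 1.33-fold from a control level under the bound (2.48), and IL1RN, the antagonist of the IL-1 receptor, fell at least 1.39-fold to one under it (2.96). Of 15 S100 genes 4 were higher, 3 lower and 8 not called, with a median of 0.06. S100A8 and S100A9, the subunits of calprotectin, rose 6.31-fold and 4.62-fold; S100A8 went from 5.86, 5.93 and 5.92 to 8.43, 8.63 and 8.61. In the same family S100P and S100A7 fell (−1.22 and −0.94). Of 30 interferon response genes 6 were higher (20.0%), 3 lower (10.0%) and 21 not called, with a median of 0.09. Over all genes 13.6% were higher and 11.7% lower. The higher count of the list was 3 without Delta-HER2 replicate 1. SAMD9 (−1.23) led the lower members. The higher members were led by CXCL10 (at least 3.24-fold from under the bound), OASL (1.39) and RIGI (1.27). These 3 genes were not called between Delta-HER2 and WT-HER2 cells (differences 0.07, −0.07 and 0.12). In the hypoxia and angiogenesis list 12 of 21 were higher and 2 lower (median 0.46): VEGFA rose 3.92-fold (5.76, 5.74 and 5.64 against 7.75, 7.63 and 7.67), ANGPTL4 by 1.71, STC2 by 1.56 and HIF1A by 1.44. ADM, another target of hypoxia-inducible factors, fell by 1.32.

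Several families held members that moved in opposite directions, each beyond the spread of its arrays. Over all genes 13.6% were higher and 11.7% lower. Of 17 Eph receptors and ephrins 2 were higher, 4 lower and 11 not called. Of 21 semaphorins and plexins 7 were higher, 4 lower and 10 not called. The TGF-beta list of 26 had 8 higher, 5 lower and 13 not called, and the NRF2 list of 19 had 7, 4 and 8. Of the Eph receptors EPHA2 rose by 1.71 (6.20, 5.96 and 6.13 against 7.83, 7.77 and 7.83) and EPHA4 fell 6.04-fold (6.52, 6.55 and 6.77 against 4.01, 3.84 and 4.21). Of the semaphorins SEMA3A rose by 1.99 with its receptor gene NRP1 (1.56), and SEMA3C fell by 1.76. In the TGF-beta list ID1 was higher (1.27) and ID3 lower (−1.33), with the latency protein gene LTBP1 at 1.79. Of YAP and TAZ targets 7 of 18 were higher, led by F3, tissue factor (2.20), and CCN1 (1.56), and 6 lower, led by PTPN14 (−1.01). In the Notch list of 19 genes 1 was higher (5.26%), 4 were lower (21.1%) and 14 were not called. NOTCH1 (−1.59) and JAG2 (−0.90) fell, while HEY1, a target of Notch, rose by 1.42. In the NRF2 list the exporter gene ABCC3 rose by 2.13 and TXNRD1 fell by 1.00.

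Called cell death genes moved both ways, and most of the called p53, lysosome and autophagy genes were lower. The shares over all genes were 13.6% higher and 11.7% lower. Of 16 BCL2 family genes 3 were higher (18.8%), 4 lower (25.0%) and 9 not called, with a median of 0.05. Among the lower ones were the death-promoting BCL2L11 (BIM), which went from 6.58, 7.07 and 6.95 to 5.51, 5.27 and 5.48 (−1.45), and BMF (−1.41). BAK1, also death-promoting, and BCL2L1, which protects cells, rose by 0.73 and 0.47. Of 20 p53 targets 7 were lower, led by TP53INP1 (−1.96), 2 higher (PLK3, 1.25, and AEN, 0.60) and 11 not called. Lysosome genes were lower in 13 of 26, and 11 were not called. After GPNMB the largest were CTSH (−0.84) and CTSS (at least 1.48-fold, to under the bound), and CTSZ and GLA were higher (0.50 and 0.86). Of 21 autophagy genes 8 were lower and 12 not called. The lower ones were led by GABARAPL1 (−1.19), ATG14 (−0.98) and the kinase gene ULK1 (−0.80), and ATG16L1 was higher (0.69).

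Micro-RNA genes were examined after their values were seen. The array's probes report RNA from the precursor's locus, not the mature molecule. Of 173 such genes 22 (12.7%) were lower, near the 11.7% of all genes, and 0 were higher, against 13.6% of all genes. Of the 75 with a mean at or above the background bound 60 differed below 0 (80.0%) and 20 were called lower (26.7%), with a median of −0.21; over all 13235 genes at or above the bound these shares were 52.7% and 15.8%. None of the 22 overlapped between groups, which the call itself makes likely. Among all 173 micro-RNA genes 37 did not overlap, a smaller share than the 37.0% of all genes. Of the 22, 16 were called in each of the 20 settings run on single genes. At an adjusted p below 0.01 there were 16 called lower, and with a 2-fold minimum 9. MIR15A read 6.90, 7.09 and 7.09 in control and 5.39, 5.14 and 5.38 in Delta-HER2 cells (−1.73), and DLEU2, the gene it lies in, fell by 1.07. MIR222 and MIR221, neighbours on the X chromosome, fell (−1.56 and −1.14); MIR222 read 5.87, 6.32 and 6.58 against 4.60, 4.81 and 4.68. MIR141 and MIR200C, neighbours whose products target ZEB1 and ZEB2, fell (−1.28 and −1.05), while ZEB1 differed by 0.27 without a call and ZEB2 was lower (−0.49). The 4 miR-181 genes MIR181B1, MIR181A2, MIR181B2 and MIR181A1, in clusters on chromosomes 1 and 9, were lower (−1.44, −1.33, −0.96 and −0.93); MIR181A1 and MIR181A2 lost their call under some alternatives. MIR30E fell by 1.24. By position alone 9 of the called genes lie inside another tested gene, and 5 of these inside one that was not called lower. Strands were not compared, and a gene on the opposite strand would not carry the micro-RNA in its transcript. Among the 5 is a gene inside MCM7: MCM7 was called higher (0.96), while the micro-RNA gene differed by −0.52.

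RefSeq (GRCh38.p14) held mature sequences for all 22. Those of the genes named above are shown to set out which share a seed, the bases 2 to 8 that pair with targets, given in capitals. They lie at chrX:45746180-45746202, chrX:45747036-45747056, chr1:198859108-198859130 (the MIR181A1 copy), chr1:198858925-198858947 (the MIR181B1 copy) and chr13:50049167-50049188 on the minus strand and at chr12:6964155-6964176, chr12:6963742-6963764 and chr1:40754371-40754392 on the plus strand.
hsa-miR-221-3p: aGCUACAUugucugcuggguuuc
hsa-miR-222-3p: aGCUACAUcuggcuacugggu
hsa-miR-181a-5p: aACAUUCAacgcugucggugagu
hsa-miR-181b-5p: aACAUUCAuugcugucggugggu
hsa-miR-141-3p: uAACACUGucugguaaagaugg
hsa-miR-200c-3p: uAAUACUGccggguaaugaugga
hsa-miR-15a-5p: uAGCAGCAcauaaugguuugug
hsa-miR-30e-5p: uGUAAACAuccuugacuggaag
The products of MIR221 and MIR222 share the seed, as do those of the 4 miR-181 genes. MIR141 and MIR200C do not share it, although they are neighbours of 1 cluster. CDKN1B, a known target of miR-221 and miR-222, was itself lower (−0.59).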

How the data were processed

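Affymetrix whole-transcript arrays measured RNA from MCF10A cells, 3 each for control, WT-HER2 and Delta-HER2 cells, per the labels. The authors deposited log2 values, computed by RMA (affy, R 2.14), per the submitters' processing notes. RMA corrects background, normalizes quantiles across arrays and summarises the probes of a transcript; it compresses differences near background. The genome build is not given in the sources used here. Values were used as deposited.

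Of 32321 probes in the table, 19158 carried 1 gene symbol in the array's annotation, 1388 several and 11775 none; 19128 of the first were matched by Entrez number. The probe with the highest mean over the 9 arrays stood for each gene (637 genes had several probes). Tests used limma 3.58.1 (statmod 1.5.0, under R 4.3.3). Each group had its own mean in a model of all 9 arrays, residual degrees of freedom 6, prior 3.253, two-sided, with Benjamini-Hochberg adjustment over 18404 genes. The procedure was tested on simulated data. No block for the replicate number was used: 1 of 9 arrays correlated best with its own number, and the 9 same-number pairs correlated from −0.508 to 0.302.

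The comparison and the 57 gene lists (1029 of 1119 entries measured; the rest not analysed here) were chosen with earlier results of these data known, so lists carry no test. Genes are named by a rule: the HER receptors and DUSP6, the 15 largest increases and decreases among called genes without overlap, up to 5 called members of each list with the largest differences, members called against their list's majority, uncalled members where 3 or fewer, and cell type markers. Others are said to have been chosen after their values were seen, among them ZEB1, SNAI1, SNAI2, TWIST2, MCM7, PCNA, the micro-RNA genes and DLEU2. Summed marker levels are the log2 of summed linear values. Identical values on all arrays of a group occurred for 549 probes in control and 688 in Delta-HER2 cells, which makes some SE too small. Probes in near-identical copies of a gene may share signal. There were 23 alternative settings, 20 of them also run on single genes; the stricter thresholds and all probes were run on counts.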

Additional observations from a re-analysis of the deposited data

Results flagged for a closer look

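Probes that carry no single gene symbol took no part in the comparison. When all probes of the table were fitted together, 507 of 13163 such probes were called higher with Delta-HER2 and 625 lower (limma, adjusted over all probes). No gene can be named for them here.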

How the results depend on the processing

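Of the 23 alternatives 20 were run on single genes, and no gene named by the rule reversed in these. Of 342 called genes named by the rule 304 were tested and called in all 20, and 6 were removed by a filter on low values in at least 1; leaving out 1 array at a time ended the call of 33 genes at least once, and the other alternatives that of 19. The count of called genes ran from 3805 to 5097 with 1 array left out, of genes called higher from 2036 to 2708 and of genes called lower from 1637 to 2389. With the replicate number as a block 2198 genes were higher and 1781 lower; the numbers do not pair the arrays. At adjusted p below 0.01 the lower count was 1381, and with a 2-fold minimum 961 genes were called, 636 higher and 325 lower. The other counts over all genes stayed within 1.5 times the reported ones. The stricter thresholds pass fewer genes by construction; the cause of the other changes was not tested. Over all genes 13.6% were higher and 11.7% lower in the main fit. Of 26 Wnt genes 5 were higher, 5 lower and 16 not called. Their higher count was 9 without both arrays that stand apart and 3 without Delta-HER2 replicate 1. Their lower count was 3 without Delta-HER2 replicate 1 or 3, 2 without Delta-HER2 replicate 2 and 1 without control replicate 2. Of 13 metallothionein and zinc transporter genes 5 were higher, 0 lower and 8 not called. Their higher count was 3 with the block and without Delta-HER2 replicate 1 or control replicate 2 or 3. Of 10 MHC class I and antigen processing genes 1 was higher, 5 lower and 4 not called. Their lower count was 3 without Delta-HER2 replicate 3. Lower micro-RNA genes numbered 9 with the 2-fold minimum, 16 at adjusted p below 0.01, 17 without Delta-HER2 replicate 1 and 32 with array weights. Signal near background limits 126 genes called higher from a control mean under the bound and 132 called lower to a Delta-HER2 mean under it.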

Other observations

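Some families were counted after their values were seen. Over all genes 13.6% were higher and 11.7% lower. The shares were 2.08% and 16.9% for numbered zinc finger genes and 41.2% and 11.8% for histone genes. For small nucleolar RNA genes they were 14.8% and 9.09%, near those of all genes. Of 480 numbered zinc finger genes 10 were higher and 81 lower with Delta-HER2 (median −0.13), and the lower count was 6 with a 2-fold minimum, 35 at adjusted p below 0.01, 50 without Delta-HER2 replicate 2, 52 without control replicate 3, 126 without both arrays that stand apart and 140 with array weights. Of 68 histone genes 28 were higher and 8 lower (median 0.25). Of 176 small nucleolar RNA genes 26 were higher and 16 lower, and the lower count was 8 without Delta-HER2 replicate 3 or control replicate 2, 9 without Delta-HER2 replicate 2, 10 without Delta-HER2 replicate 1, 6 at adjusted p below 0.01, 1 with a 2-fold minimum and 30 with array weights. The higher count was 15 without Delta-HER2 replicate 1 or control replicate 1, 13 at adjusted p below 0.01 and 8 with a 2-fold minimum. Of the 6 endothelial markers 4 lay under the background bound by their mean. PECAM1, an adhesion gene, was higher with Delta-HER2, at least 1.6-fold from a control level under the bound (3.00 to 3.90), and the receptor gene KDR was lower with both groups under it (2.97 and 2.61).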
